A study of Mus musculus with 6 samples.

Results

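Dpp4, Pi16 and 7 further genes of connective tissue fibroblasts (Sema3c, Cd55, Anxa3, Clec3b, Cd34, Ly6a and Pdgfra) were followed in the limb bones of mouse pups with a conditional knockout of Hdac3. The 9 genes were taken by name from a deposited table of 43346 genes, and all 9 were found, each on 1 row. The set was chosen by name on the low Dpp4 and Pi16 levels of Hdac3 CKO libraries, with results of this genotype comparison already known. Their differences between the genotypes are therefore given as a description. No p-value is printed for a member, and which members fall under the threshold used for all genes is stated without support being drawn from it. The study measured RNA by RNA-seq in 3 libraries labelled Hdac3 CKO and 3 labelled WT, all from C57BL/6 pups at 1 day of age. Hdac3 encodes a histone deacetylase, and the series describes the mutant as a conditional knockout with Prx1, an enhancer widely used to drive Cre recombinase in limb bud mesenchyme, the source of bone, cartilage, tendon and connective tissue fibroblasts of the limb but not of blood cells or muscle fibres. Bones of fore- and hindlimbs were freed of soft tissue before lysis, per the labels' protocols. The labels do not say whether WT pups carried Cre or floxed alleles, nor that libraries came from different pups, so the p-values reflect how far these 6 libraries vary, and that variation may be partly technical.

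In adult mouse tissues, fibroblasts that carry DPP4 and PI16 line the fascia, the adventitia of vessels and the reticular connective tissue around organs. They are described as progenitors that give rise to other fibroblasts and, in fat, to preadipocytes, and they share CD34, LY6A and PDGFRA with many other mesenchymal cells. DPP4 is a membrane peptidase that trims the N-terminus of chemokines and hormones, and PI16 is a membrane-anchored protein of the CAP family. The other members are a guidance signal (Sema3c), a shield against complement (Cd55), a phospholipid-binding annexin (Anxa3), the plasminogen-binding lectin tetranectin (Clec3b), a sialomucin (Cd34), the stem cell antigen Sca-1 (Ly6a) and a growth factor receptor (Pdgfra).

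Library totals lay between 43389262 and 50927978 counts, and the members had between 87 counts (Dpp4) and 12851 counts (Pdgfra) in a library. Hdac3 itself stood at 31.8, 29.4 and 28.3 CPM in Hdac3 CKO and at 48.4, 47.4 and 50.3 CPM in WT, where CPM is a read count scaled to library size with TMM factors (log2 fold change -0.71 ± 0.12, SE). Osteoblast markers were abundant, with a summed level of 39304 to 58780 CPM over 7 genes in Hdac3 CKO and 24818 to 33400 CPM in WT. Muscle transcripts were also abundant after the cleaning, with 24318 to 40346 CPM over 6 genes in Hdac3 CKO and 22507 to 26835 CPM in WT. Cartilage transcripts set 1 library of each genotype apart. Col2a1 stood at 11502 CPM in Hdac3 CKO replicate 3 and 5212 CPM in WT replicate 3, against 453 to 896 CPM in the other libraries.

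On mm10, Dpp4 (ENSMUSG00000035000) lies on chromosome 2 from 62330073 to 62412231 and Pi16 (ENSMUSG00000024011) on chromosome 17 from 29318877 to 29329413. Sema3c (17574281 to 17730268), Pdgfra (75152291 to 75198204) and Anxa3 (96793385 to 96845968) are on chromosome 5. Cd55 (130439027 to 130462744) and Cd34 (194938819 to 194961279) are on chromosome 1. Clec3b is on chromosome 9 (123150946 to 123157430) and Ly6a on chromosome 15 (74994877 to 74998031). All 9 are protein-coding in GENCODE M21, and the set is not a genomic cluster.

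RefSeq promoter windows on GRCm38.p6 were found for 6 members: Dpp4, Pi16, Sema3c, Cd55, Cd34 and Pdgfra. The 250 bases before the start are shown for Dpp4 and Cd55, the pair among the 4 members with the lowest ratio of Hdac3 CKO to WT whose windows hold no annotated exon. The Dpp4 window is chr2:62412232-62412481 and the Cd55 window chr1:130462745-130462994, both on the minus strand. Capitals mark matches to any of 6 motifs searched on both strands: TATAAA (a core promoter element), CCAAT (bound by NF-Y), GGGCGG (bound by SP factors), TGANTCA (bound by AP-1), AGGTCA (a nuclear receptor site) and TTCNNNGAA (bound by STAT factors). None of them overlaps another in the windows shown.
Dpp4: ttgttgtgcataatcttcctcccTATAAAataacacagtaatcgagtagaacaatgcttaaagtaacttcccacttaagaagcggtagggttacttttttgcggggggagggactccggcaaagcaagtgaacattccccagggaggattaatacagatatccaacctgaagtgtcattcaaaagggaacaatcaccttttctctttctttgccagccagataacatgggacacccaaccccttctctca
Cd55: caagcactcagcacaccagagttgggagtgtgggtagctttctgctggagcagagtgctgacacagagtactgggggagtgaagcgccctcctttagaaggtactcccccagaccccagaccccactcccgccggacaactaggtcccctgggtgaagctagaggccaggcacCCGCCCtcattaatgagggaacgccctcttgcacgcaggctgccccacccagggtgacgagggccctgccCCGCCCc
The Dpp4 window held a single TATAAA, at position -227 from the start, and no GGGCGG. The Cd55 window held GGGCGG on the opposite strand at positions -77 and -7. The GC content was 43.6% for Dpp4 and 64.0% for Cd55, with a median of 52.4% over 32851 windows. TATAAA occurred in 12.4% of those windows and GGGCGG in 32.7%. Among the other members, Pi16 held CCAAT (33.8% of all windows) and Sema3c held GGGCGG, while Cd34 and Pdgfra matched none of the 6. All 250 bases of the Pi16 window and of the Sema3c window lay in annotated GENCODE M21 exons, unlike the windows shown. The motifs TGANTCA (6.75% of windows), AGGTCA (14.0%) and TTCNNNGAA (7.02%) matched in 0 of the 6 members. These matches describe letters in a window only. None of the 6 motifs was found in both Dpp4 and Pi16.

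Dpp4 had the lowest ratio of Hdac3 CKO to WT in the set. It stood at 2.11, 3.01 and 2.44 CPM in Hdac3 CKO replicates 1, 2 and 3, against 11.4, 12.4 and 8.04 CPM in WT replicates 1, 2 and 3. The highest Hdac3 CKO library was well below the lowest WT library. The means were 2.52 ± 0.46 CPM in Hdac3 CKO and 10.6 ± 2.3 CPM in WT (SD, n = 3 each), which puts Hdac3 CKO at 23.7% of WT and the log2 fold change at -2.08 ± 0.23 (SE).

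Pi16 stood at 7.34, 9.96 and 10.04 CPM in Hdac3 CKO, against 26.1, 20.9 and 18.1 CPM in WT. The genotypes did not overlap. The mean in Hdac3 CKO was 9.11 ± 1.54 CPM, or 42.0% of the 21.7 ± 4.1 CPM in WT (SD, n = 3 each), and the log2 fold change was -1.25 ± 0.19 (SE). Both genes fell under the threshold for a call, an adjusted p of 0.05 over all tested genes in edgeR's quasi-likelihood test, which is no test of genes chosen on these same values. The Pi16 call was absent without Hdac3 CKO replicate 3, WT replicate 1 or WT replicate 2. Neither gene was called when both cartilage-rich replicates 3 were left out, a fit of 2 libraries against 2 in edgeR that called 0 of 20270 genes, with 2309 at an unadjusted p under 0.05. In that fit the log2 fold changes were -2.22 for Dpp4 and -1.44 for Pi16. In bulk tissue, fewer cells of a type and less RNA per cell cannot be told apart.

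Sema3c and Cd55, the secreted guidance signal and the complement shield, had fold changes close to that of Pi16 but a far wider spread. Sema3c stood at 38.2, 86.8 and 72.2 CPM in Hdac3 CKO, against 189.5, 135.8 and 96.7 CPM in WT. The genotypes did not overlap, but Hdac3 CKO replicate 2 came close to WT replicate 3. Its log2 fold change was -1.10 ± 0.31 (SE), and its means were 65.7 ± 24.97 CPM in Hdac3 CKO and 140.7 ± 46.6 CPM in WT (SD, n = 3 each). Cd55 stood at 6.32, 22.7 and 13.6 CPM in Hdac3 CKO, against 42.0, 25.2 and 18.6 CPM in WT. Here Hdac3 CKO replicate 2 was above WT replicate 3, so the genotypes overlapped, and the log2 fold change was -1.008 ± 0.45 (SE). The highest Hdac3 CKO library had 3.595 times the Cd55 level of the lowest, against 1.43 times for Dpp4. Cd55 depended on single libraries, at -0.66 without Hdac3 CKO replicate 1, -0.62 without WT replicate 1 and -1.52 without Hdac3 CKO replicate 2. Neither gene passed the threshold in edgeR, and DESeq2 called Sema3c lower.

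Clec3b and Ly6a had smaller differences. Clec3b, which encodes tetranectin, stood at 56.3, 57.6 and 64.0 CPM in Hdac3 CKO, against 91.1, 78.9 and 73.2 CPM in WT. All Hdac3 CKO libraries were below all WT libraries, with means of 59.3 ± 4.1 CPM and 81.1 ± 9.2 CPM (SD, n = 3 each) and a log2 fold change of -0.45 ± 0.13 (SE). Ly6a, which encodes Sca-1, stood at 11.8, 10.2 and 11.4 CPM in Hdac3 CKO, against 19.2, 13.3 and 13.3 CPM in WT. Only WT replicate 1 was far above the Hdac3 CKO range. The log2 fold change of Ly6a was -0.46 ± 0.18 (SE), or -0.26 without WT replicate 1. Neither gene passed the threshold.

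Pdgfra, Cd34 and Anxa3 had the smallest differences of the set. Pdgfra, the receptor for PDGF ligands, stood at 188.4, 195.3 and 194.1 CPM in Hdac3 CKO, against 241.5, 222.1 and 202.7 CPM in WT. Its libraries did not overlap, and the log2 fold change was -0.21 ± 0.12 (SE). Cd34 stood at 175.8, 166.9 and 160.3 CPM in Hdac3 CKO, against 207.9, 203.1 and 162.5 CPM in WT. WT replicate 3 lay inside the Hdac3 CKO range, and the log2 fold change was -0.19 ± 0.14 (SE). Anxa3 stood at 21.8, 24.9 and 22.4 CPM in Hdac3 CKO, against 26.2, 24.6 and 23.1 CPM in WT. The genotypes overlapped, with a log2 fold change of -0.10 ± 0.13 (SE). None of the 3 passed the threshold.

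**Figure D1:**
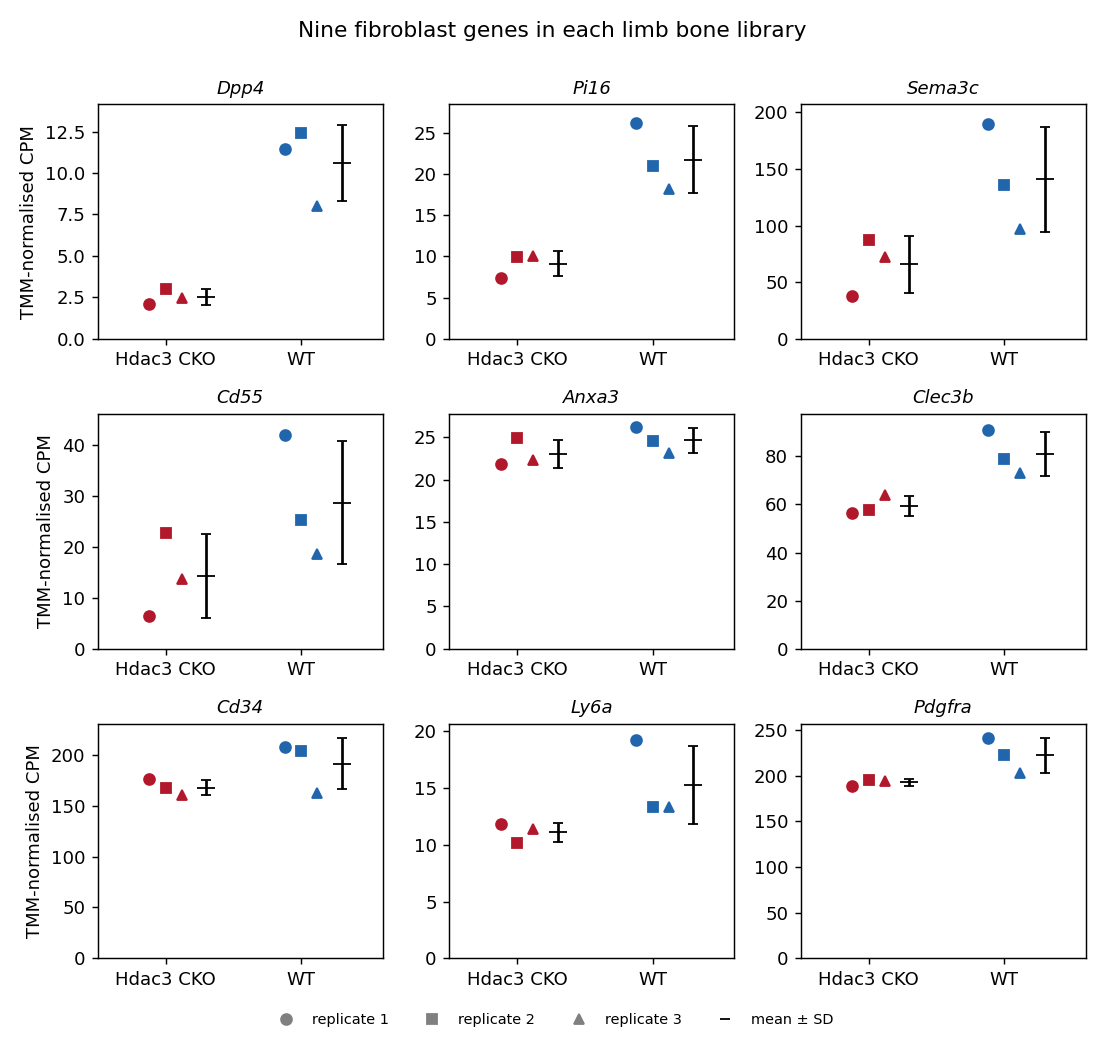
Each panel plots TMM-normalised CPM of 1 gene (linear axis from 0) in 3 Hdac3 CKO and 3 WT libraries, with circles, squares and triangles for replicates 1, 2 and 3 and black bars for the mean ± SD. Dpp4 and Pi16 are widely separated between the genotypes, Cd55 overlaps, and Anxa3 and Cd34 lie close together.

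Counted over the set, all 9 members passed the filter on low counts, and all 9 had a log2 fold change below 0, with a median of -0.46. Over all 20210 tested genes, 49.9% were below 0 and the median was 0.00098. Of the 9 members 2 were called lower, Dpp4 and Pi16, and 0 were called higher. Over all tested genes 0.475% were called lower, 0.703% higher and 1.18% in either direction. Since these differences were known when the set was chosen, nothing is read from that count. In 6 members (Dpp4, Pi16, Sema3c, Clec3b, Ly6a and Pdgfra) every Hdac3 CKO library was below every WT library, as in 10.9% of tested genes. The other 3 (Cd55, Anxa3 and Cd34) overlapped. Scaled by library totals alone, the 20210 genes had a median of -0.18 and the 9 members one of -0.64, so the direction of each member was the same and its distance from all genes was similar.

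Across libraries the members shared an order within WT but not within Hdac3 CKO. WT replicate 3 was the lowest WT library for 9 of 9 members, and WT replicate 1 was the highest of all libraries for 8 of 9, the exception being Dpp4. Sums over 2 other fibroblast lists fell in the same WT order, but such sums mostly follow their most abundant genes. Not every gene of these lists had that order: among WT libraries, Smpd3 and Pdgfrb were highest in WT replicate 3. The share of this order over all genes was not counted. In WT replicates 1, 2 and 3, 18 other genes of Dpp4+ Pi16+ fibroblasts summed to 2319, 1990 and 1593 CPM. The sums of 12 genes of most fibroblasts were 14643, 14100 and 11034 CPM. In Hdac3 CKO, replicate 1 was the lowest library for 7 of 9 members, and for Ly6a and Cd34 it was the highest Hdac3 CKO library. Relative to the mean of its genotype, Hdac3 CKO replicate 1 was lower by 0.98 (log2) in Cd55, 0.70 in Sema3c, 0.30 in Pi16 and 0.24 in Dpp4, but by 0.03 in Pdgfra. WT replicate 3 was lower than the WT mean by 0.54 in Cd55, 0.49 in Sema3c, 0.38 in Dpp4 and 0.24 in Pi16, and by 0.13 in Pdgfra. Sema3c and Cd55 therefore varied the most within both genotypes, and Pdgfra and Anxa3 little. WT replicate 3 was also the cartilage-rich WT library, and Hdac3 CKO replicate 1 had the highest muscle marker sum. The part of either in these values was not tested.

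**Figure D2:**
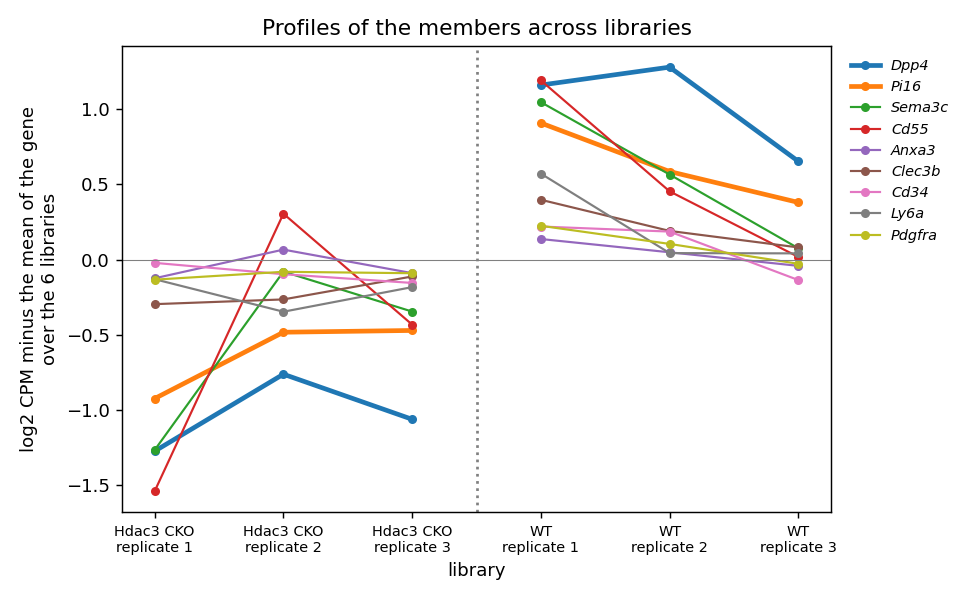
The vertical axis gives log2 CPM of each member minus its own mean over the 6 libraries, which run along the horizontal axis with the 3 Hdac3 CKO libraries left of the dotted line and the 3 WT libraries right of it. Lines only join the values of a gene within a genotype: Dpp4 and Pi16 (thick) stay apart from 0 in every library, Sema3c and Cd55 drop in Hdac3 CKO replicate 1, and Anxa3, Cd34 and Pdgfra stay near 0.

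Counts were also set against Pdgfra, a member of the set that marks mesenchymal cells broadly. Dpp4 and Pi16, on whose low levels the set was chosen, were lower in Hdac3 CKO on this scale too. Dpp4 had 11.2, 15.4 and 12.6 counts per 1000 Pdgfra counts in Hdac3 CKO, against 47.3, 55.9 and 39.6 in WT. Pi16 had 38.9, 50.998 and 51.8 counts per 1000 Pdgfra counts in Hdac3 CKO, against 108.2, 94.1 and 89.4 in WT. For both genes the highest Hdac3 CKO ratio was below the lowest WT ratio. The mean ratio in Hdac3 CKO was 0.274 of that in WT for Dpp4, 0.486 for Pi16 and 0.544 for Sema3c. It was 0.844 for Clec3b, with no overlap, and 0.845 for Ly6a, 0.580 for Cd55 and 1.014 for Cd34, all of which overlapped. Anxa3 per Pdgfra was 1.08 times the WT ratio, and every Hdac3 CKO library was above every WT library. Dpp4 was also lower relative to Pi16, with 287.1, 301.9 and 243.1 Dpp4 counts per 1000 Pi16 counts in Hdac3 CKO and 437.1, 593.7 and 443.3 in WT. Sema3c relative to Pi16 overlapped between the genotypes, at 7035 ± 1762 counts per 1000 Pi16 counts in Hdac3 CKO and 6361 ± 966 in WT (SD, n = 3 each). These ratios rest on the same counts as the fold changes and are a description.

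**Figure D3:**
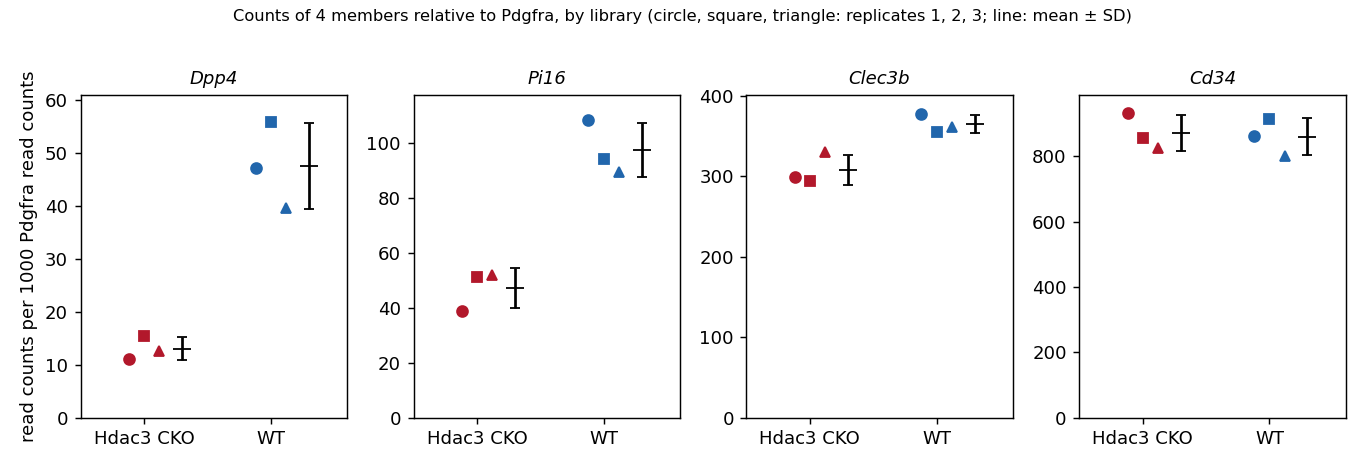
Read counts of Dpp4, Pi16, Clec3b and Cd34 per 1000 Pdgfra read counts are plotted for each library (linear axes from 0), with Hdac3 CKO left of WT, circles, squares and triangles for replicates 1, 2 and 3 and black bars for the mean ± SD. Dpp4 and Pi16 are separated by genotype, Clec3b is separated by less, and Cd34 overlaps.

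Per length, on the authors' RPKM scale, Clec3b was the most abundant member and Dpp4 the least. Mean levels in Hdac3 CKO were 45.3 RPKM for Clec3b, 21.7 for Pdgfra, 17.4 for Cd34, 10.9 for Anxa3, 6.98 for Ly6a, 6.96 for Sema3c, 2.22 for Cd55, 1.73 for Pi16 and 0.302 for Dpp4. In WT they were 67.5 RPKM for Clec3b, 27.3 for Pdgfra, 21.7 for Cd34, 16.1 for Sema3c, 12.8 for Anxa3, 10.4 for Ly6a, 4.796 for Cd55, 4.48 for Pi16 and 1.40 for Dpp4. Along the WT order, neighbours overlapped in WT for Cd34 and Sema3c, for Sema3c and Anxa3, and for Cd55 and Pi16. In Hdac3 CKO, every Sema3c value was below every Anxa3 value, the reverse of the WT order of means, and Cd55 and Pi16 overlapped. The name-giving genes of the set were thus among its 3 least abundant members in both genotypes.

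Beyond the members, 18 other genes known from Dpp4+ Pi16+ fibroblasts of mice were tested in the fit over all genes. Wnt2, a ligand of the Wnt pathway, fell, and Igfbp6, which binds insulin-like growth factors, rose, so 1 of 18 rose and 1 fell, while 16 did not pass. Wnt2 had 0.339, 0.376 and 0.256 CPM in Hdac3 CKO, against 2.29, 1.90 and 1.12 CPM in WT, a difference of -2.45 ± 0.39 (log2, SE; adjusted p = 0.023, edgeR quasi-likelihood). That call was absent without Hdac3 CKO replicate 3, WT replicate 1 or WT replicate 2, where the adjusted p reached 0.091. Igfbp6 had 108.5, 109.9 and 98.5 CPM in Hdac3 CKO, against 41.4, 31.4 and 33.3 CPM in WT, a difference of 1.58 ± 0.14 (log2, SE; adjusted p = 0.0053, edgeR quasi-likelihood). It passed in all 6 fits that lacked a library (edgeR adjusted p = 0.0034 to 0.023). The list median was -0.13, with 11 genes below 0 and 7 above. Among genes singled out after their values were seen, Efemp1, a fibulin, stood at -1.21 and Dpt and Col14a1 at -0.50, while Smpd3 stood at 0.92 and Uchl1 at 0.63. DESeq2 called 481 of all 20210 tested genes higher and 387 lower. Of the 18 it called 3 higher (Igfbp6, Uchl1 and Smpd3) and 2 lower (Wnt2 and Efemp1). Other genes of these fibroblasts thus lay on both sides of 0.

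Genes of other fibroblast states moved in both directions too. Of 9 tested, Icam1 and Cygb rose, Penk fell and 6 did not pass, with a median of 0.077. Penk, which encodes a precursor of enkephalin peptides, had 38.7, 23.1 and 27.3 CPM in Hdac3 CKO, against 84.2, 98.6 and 75.4 CPM in WT. Its log2 fold change was -1.54 ± 0.20 (SE; edgeR adjusted p = 0.014). Icam1, an adhesion molecule of committed preadipocytes and of leukocyte traffic, averaged 26.1 ± 0.4 CPM in Hdac3 CKO and 15.0 ± 1.1 CPM in WT (SD, n = 3 each; log2 fold change 0.80, adjusted p of 0.025 in edgeR). Cygb, a globin of fibroblasts, averaged 25.9 ± 1.7 CPM in Hdac3 CKO and 14.9 ± 1.1 CPM in WT (log2 fold change 0.80, adjusted p of 0.027 in edgeR). With 1 library left out, Penk passed in 3 of 6 fits and Icam1 and Cygb in 2 of 6. Penk missed without Hdac3 CKO replicate 3, WT replicate 1 or WT replicate 2, and Icam1 and Cygb also without WT replicate 3.

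Genes of most fibroblasts stood above 0 as a list, with a median log2 fold change of 0.39 and 9 of 12 above 0. In edgeR 0 of 12 passed, 6 were higher at an unadjusted p under 0.05, DESeq2 called 5 higher and limma-voom called 0. The counts over all 20210 tested genes, in either direction, were 3031 at an unadjusted p under 0.05 in edgeR, 868 called by DESeq2 and 176 by limma-voom. Col6a3, a chain of collagen VI, averaged 2698 ± 237 CPM in Hdac3 CKO and 1619 ± 323 CPM in WT (log2 fold change 0.74 ± 0.18), and Thy1, a surface glycoprotein, 32.4 ± 3.3 CPM in Hdac3 CKO and 22.2 ± 0.9 CPM in WT (0.55 ± 0.13). Adjusted p-values in edgeR were 0.097 for Col6a3 and 0.091 for Thy1. The 3 below 0, singled out after their values were seen, were the matrix proteoglycan genes Dcn (-0.48) and Lum (-0.24) and Fap (-0.075), a peptidase gene related to Dpp4. None of these 3 passed, and all 3 overlapped between the genotypes.

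**Figure D4:**
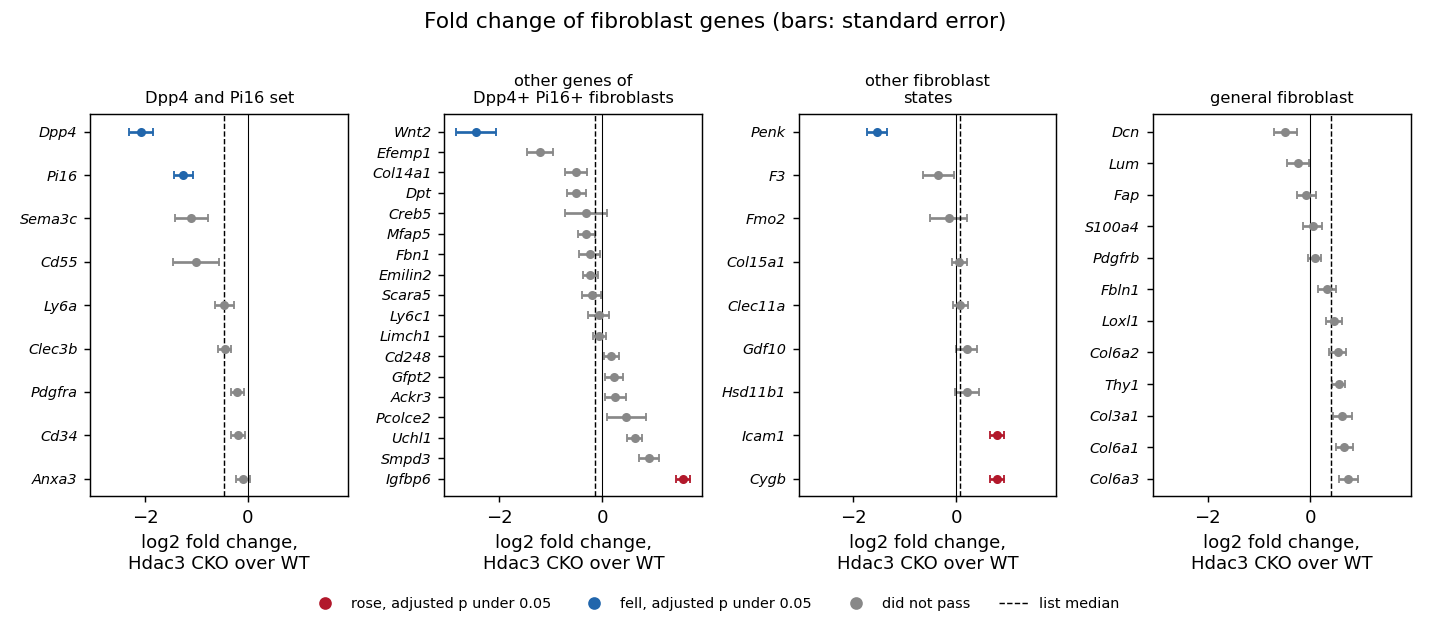
The horizontal axis gives the log2 fold change of Hdac3 CKO over WT with its standard error for each tested gene of 4 lists, and dashed lines mark list medians of -0.46, -0.13, 0.077 and 0.39 from left to right. Coloured points passed an adjusted p under 0.05 in edgeR: Dpp4, Pi16, Wnt2 and Penk fell and Igfbp6, Icam1 and Cygb rose.

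Relatives, ligands and receptors of the members were mostly not called. Over 48 tested genes in 8 such lists 1 rose, Crispld2, and 0 fell in edgeR. At an unadjusted p under 0.05, 9 were higher and 5 lower, DESeq2 called 3 higher and 1 lower, and limma-voom called 0. Among all 20210 tested genes, 3031 had an unadjusted p under 0.05 in edgeR, and DESeq2 called 868. Crispld2, like Pi16 a gene of the CAP family, averaged 32.5 ± 3.5 CPM in Hdac3 CKO and 20.2 ± 0.9 CPM in WT (SD, n = 3 each). Its log2 fold change was 0.69 ± 0.13 with an adjusted p of 0.047 in edgeR, and it passed in 1 of 6 fits with a library left out, that without Hdac3 CKO replicate 2. Glipr2 of the same family stood at 0.33. Among relatives of Dpp4, Dpp6 stood at -0.58 and Dpp10 at -0.46, and neither passed. For Sema3c, its receptor Nrp2 stood at 0.67 and the semaphorin Sema3b at 0.58. The semaphorin Sema3a, singled out after its value was seen, stood at -0.82 and was the gene that DESeq2 called lower. Of the 11 genes in this list 8 were above 0 and 3 below. Pdgfra ligands Pdgfa and Pdgfb stood at 0.23 and 0.39. The complement regulators Cd46 and Cr1l stood at -0.84 and -0.30. The annexins Anxa5 and Anxa8 stood at 0.36 and -0.74, the CD34 relatives Podxl and Podxl2 at 0.40 and -0.18, and Ly6e and the granulocyte gene Ly6g at 0.34 and -3.34. Ly6g rested on few reads, with 4, 0 and 1 counts in Hdac3 CKO and 20, 14 and 31 in WT (SE 0.79), and did not pass.

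Likeness to Dpp4 and to Pi16 was measured as the root mean square difference between log2 CPM profiles, each centred on its mean over the 6 libraries. Each was compared with 13597 other tested genes that had a mean count of at least 50, with predicted genes left out. The 5 nearest to Dpp4 were Pde1a (0.202), Sfmbt2 (0.218), Wnt2 (0.282), Adamts16 (0.285) and Naalad2 (0.319). Pde1a averaged 1.39 CPM in Hdac3 CKO and 6.18 CPM in WT. The 5 nearest to Pi16 were Cyp39a1 (0.119), Pcdhb15 (0.126), Abca8a (0.145), B3galt1 (0.156) and Esr1 (0.158). Abca8a averaged 17.4 CPM in Hdac3 CKO and 41.3 CPM in WT. Of the other members, Pi16 came 23rd and Sema3c 61st in nearness to Dpp4, Cd55 came 222nd, and Clec3b, Ly6a, Pdgfra, Cd34 and Anxa3 ranked from 1159 to 4143. In nearness to Pi16, Sema3c came 71st, Clec3b 755th, Dpp4 943rd, Cd55 1094th and Ly6a 1160th, with Pdgfra, Cd34 and Anxa3 from 2695 to 3829. These distances use the same libraries as the genotype difference and are a description.

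Markers of other cells that carry members of the set were read beside them. Endothelial cells also carry Cd34 and Ly6a. Their 8 markers summed to 641 to 827 CPM in Hdac3 CKO and 537 to 674 CPM in WT, and the ranges overlapped. Neutrophils are a known source of Anxa3, and all 9 of their markers were lower in every Hdac3 CKO library, against 10.9% of tested genes. Their sum was 19.5 to 30.3 CPM in Hdac3 CKO and 95.2 to 290.9 CPM in WT. Of the 9 markers 6 fell (S100a8, S100a9, Mmp8, Camp, Ngp and Retnlg, with log2 fold changes from -3.55 to -2.49), against 0.475% of tested genes. Of the 6, 0 passed without Hdac3 CKO replicate 1 or without Hdac3 CKO replicate 2. Anxa3 stood at -0.10 beside them, and the part of neutrophils in its level was not tested. T cells carry Dpp4 and Ly6a, and their 6 markers summed to 4.35 to 5.56 CPM in Hdac3 CKO and 3.28 to 4.01 CPM in WT. That sum was higher in every Hdac3 CKO library, and most of it was Cd4. Of the 6 T cell markers 3 passed the filter on low counts. The 5 markers without Cd4 summed to 1.43 to 1.69 CPM in Hdac3 CKO and 1.73 to 2.01 CPM in WT, lower in every Hdac3 CKO library, and the part of T cells in the Dpp4 and Ly6a levels was not tested. Blood progenitor markers overlapped, at 40.5 to 46.0 CPM in Hdac3 CKO and 40.9 to 59.7 CPM in WT over 6 genes. No marker in these lists was at 0 in every library.

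Sums for other tissues were higher in every Hdac3 CKO library (tendon, joint, bone and macrophages) or overlapped, and the sum was lower in every Hdac3 CKO library for none of the tissues given here. Epidermal keratins were low, with 9.37 to 33.8 CPM in Hdac3 CKO and 4.69 to 16.4 CPM in WT over 5 genes. Tendon markers summed to 882 to 1234 CPM in Hdac3 CKO and 620 to 810 CPM in WT, with Thbs4 rising by 1.09 (log2). Without Thbs4 the other 4 tendon markers overlapped, at 299 to 455 CPM in Hdac3 CKO and 316 to 460 CPM in WT. Thbs4 missed the threshold without Hdac3 CKO replicate 3 or without any 1 of the WT libraries. Joint markers summed to 216 to 320 CPM in Hdac3 CKO and 96.1 to 128.7 CPM in WT, with Cilp rising by 1.82 (log2) and passing in all 6 fits that lacked a library. Without Cilp the other 3 joint markers overlapped, at 35.3 to 76.9 CPM in Hdac3 CKO and 39.4 to 58.1 CPM in WT. Adipocyte markers (793 to 825 CPM in Hdac3 CKO and 752 to 846 CPM in WT) and mural cell markers (717 to 802 CPM in Hdac3 CKO and 612 to 747 CPM in WT) overlapped. Of the 6 mural markers, taken singly, 2 were lower in every Hdac3 CKO library and 0 were higher in every one, against 10.9% and 11.5% of tested genes. Macrophage markers were higher, at 481 to 558 CPM in Hdac3 CKO and 261 to 278 CPM in WT over 7 genes. Of these 7 genes 5 rose (C1qa, C1qb, C1qc, Emr1 and Csf1r), against 0.703% of tested genes. Without WT replicate 2, 0 of these 5 passed. Dmp1, of osteocytes and late osteoblasts, rose by 1.14 (log2), and with a library left out it passed in 1 of 6 fits, that without WT replicate 3. Of the 7 bone markers 5 stood above 0 and 2 below. Every Hdac3 CKO library was above every WT library in 4 of them and below in 1, against 11.5% and 10.9% of tested genes. No bone sum was taken with a gene left out. In 8 marker lists with 44 tested genes (endothelial, mural, blood progenitor, T cell, epidermal, muscle, adipocyte and cartilage) 0 passed in edgeR, 5 were higher and 3 lower at an unadjusted p under 0.05, DESeq2 called 2 higher and limma-voom 0. For all 20210 tested genes the counts were 3031 at that unadjusted p, 868 with DESeq2 and 176 with limma-voom. In the same lists the smallest p-values without a call belonged to Vwf (0.64) and Tie1 (0.35) of endothelium, Abcc9 (-0.40) and Kcnj8 (-0.56) of mural cells, and Hlf (-0.58) and Kit (-0.33) of blood progenitors, given as log2 fold changes. Those of the other lists were Cd4 (0.87) and Lck (-0.61) of T cells, Krt15 (2.55) and Krt5 (1.90) of epidermis, and Myh3 (0.33) and Ckm (0.46) of muscle. They were Cidec (1.67) and Plin1 (0.54) of adipocytes, Acan (0.92) and Sox9 (-0.41) of cartilage, Mkx (-0.51) of tendon, Ibsp (1.21) of bone and Htra4 (-1.26) of joints. The part of any of these tissues in the members' levels was not tested.

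Some reads of the members could also belong to other genes. Of the distinct 50-base words in GENCODE M21 transcripts, the share that also occurs in another gene was 19.0% for Ly6a and 9.12% for Cd55. It was 4.93% for Pdgfra, 3.88% for Pi16, 2.92% for Dpp4, 2.14% for Cd34, 1.79% for Anxa3 and 0 for Sema3c and Clec3b. Ly6a shared most with Ly6c1, which had 211 to 344 counts in a library, and Cd55 with Cd55b, which had 12 to 45. Pdgfra, the denominator of the ratios above, shared 456 exonic bases with Gm42802 and 166 with Gm42803, and Pi16 shared 222 with AC162182.1, all on the opposite strand and with no count used here. Dpp4 shared 232 exonic bases with Gm13561 on the opposite strand, which had 0 to 14 counts. Cd55 shared 102 exonic bases with Gm16083 on the opposite strand, which had 6, 51 and 40 counts in Hdac3 CKO replicates 1, 2 and 3, against 58 and 15 counts in WT replicates 2 and 3 and more in WT replicate 1. Cd34 shared 148 exonic bases with Gm16897, also on the opposite strand, which had 687 to 1228 counts. The strand setting is not given in the sources used here, so reads in such overlaps cannot be told apart.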

How the data were processed

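RNA from limb bones was sequenced in 3 Hdac3 CKO and 3 WT libraries, with a TruSeq v2 mRNA kit per the labels' protocols. The authors deposited whole-number counts per gene and RPKM values, per the file headers. The submitters' processing notes name mm10, featureCounts and Subread, TopHat2 (version 2.1.0) and bcl2fastq (version 1.8.4); the annotation and strand setting were not given in the sources used here. Of 43346 genes, 12478 had no count. GENCODE M21, which held 98.0% of the gene identifiers, gave gene types, exons and transcripts.

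The edgeR filter on low counts kept 20210 genes with 99.9% of counts, scaled by TMM (edgeR 4.0.16, R 4.3.3). The genotypes were compared by a robust quasi-likelihood test in edgeR with no covariate and 4 residual degrees of freedom. P-values were adjusted by Benjamini-Hochberg over all tested genes, with a threshold of 0.05. Standard errors come from the test statistic. The fit was tested on simulated data. Likeness profiles used log2(CPM + 0.01).

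The members and lists were chosen with earlier results of these data known. The rule for named genes took the 9 members, each called gene and the 2 genes with the smallest p in every other list, and the 5 genes nearest to Dpp4 and to Pi16; genes outside it are said to be chosen after their values were seen, as was Col2a1. Alternatives were RLE factors, library totals, other filters on low counts, DESeq2 1.42.0, limma 3.58.1 with voom or on log2(RPKM + 1) and log2(RPKM + 0.1), libraries left out and, chosen after seeing the data, the earlier quasi-likelihood method of edgeR.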

Additional observations from a re-analysis of the deposited data

How the results depend on the processing

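All 9 members stayed below 0 under all 16 alternatives. The log2 fold change was -2.26 to -0.87 for Dpp4 and -1.44 to -1.01 for Pi16, the -1.44 in the fit without both replicates 3. The value of -0.87 was on log2(RPKM + 1), a scale that understates changes of low genes. All calls numbered 238, against 868 with DESeq2 and 131 on log2(RPKM + 1), and 23 to 175 with 1 library left out: 46 when Hdac3 CKO replicate 3 was left out, and 23, 35 and 105 when WT replicate 1, 2 or 3 was. Without both replicates 3, edgeR called 0 genes (2309 at an unadjusted p under 0.05), 0 members and 0 of the other Dpp4+ Pi16+ fibroblast genes. The members called lower, which were chosen on these values, numbered 1 to 2 with 1 library left out. Of the other fibroblast genes 1 rose and 1 fell, against 2 and 2 with no filter on low counts and 3 and 2 with DESeq2. With 1 library left out 1 to 2 rose and 0 to 2 fell. Why the number of calls differed between these settings was not tested. Library totals gave 178 calls, of which 32.6% were higher, against 59.7% with TMM.

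Among members that passed no threshold, leaving out WT replicate 1 put Cd34 at -0.12 and Anxa3 at -0.051, and leaving out WT replicate 3 put Cd34 at -0.29. No paired analysis was possible because the labels give no replicate numbers: they were assigned in accession order.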
